A study of Homo sapiens with 4 samples.

Results

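The genes described here are 53 ribosome biogenesis factors, taken by name from the 18885 genes of the deposited expression table. Each of the 53 symbols matched 1 listed gene, and all 53 reached at least 1 TPM in all 4 libraries. RNA came from MV4-11, a human acute myeloid leukemia (AML) cell line grown in culture. The control group (NC) and the group with ANP32B knocked down (sh-ANP32B) had 2 libraries each. The labels give no shRNA and no treatment for NC, whereas the study's text names an sh-NC control, so it cannot be told from the labels whether the control cells carried a hairpin. The knockdown columns are marked S3, which points to a single hairpin, and the study selected its stable lines with puromycin. Nothing in the labels says that the 2 libraries of a group came from separate cultures, so the p-values below measure the spread between these libraries only.

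Making a ribosome begins in the nucleolus, where RNA polymerase I transcribes the ribosomal DNA repeats into a long precursor RNA. Small nucleolar ribonucleoproteins (snoRNPs) modify this precursor, and large assemblies of processing factors, GTPases and RNA helicases fold and cut it while ribosomal proteins join. The small (40S) and large (60S) subunits then follow separate routes to the cytoplasm. Many of these factors are known as MYC targets in growing cells, and MYC with its partner MAX binds the E-box, the letters CACGTG.

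Promoters of the factors are shown first, because genes of this kind are known for E-boxes close to their transcription start. RefSeq promoter windows on GRCh38.p14, from 250 bases before to 50 bases after the start, were matched for 45 of the 53 genes. Each gene was read in 1 window only, so any other start of a gene was not searched. BOP1, DDX18, NOLC1, NOP58, RRP12, RRP1B, RRS1 and TCOF1 had no match. CACGTG reads the same on both strands. It was present in 15 of the 45 windows (33.3%), beside 1059 of 10015 windows of genes tested in these libraries (10.6%) and 7.43% of all 27305 windows. In 14 of the 15 genes an E-box began within 50 bases of the start, between base -16 and base 36 counted with the start as base 1. The windows below hold 30 bases each around the E-box nearest the start, read 5′ to 3′ on the strand of the gene, with the E-box in capitals. The first 9 belong to factors that fell after knockdown, with a limma adjusted p under 0.05 and more than 0.5 lower on the log2 scale, and the last to NOP10, whose TPM was higher but inside that fold limit.
FBL (chr19:39846356-39846385, minus strand): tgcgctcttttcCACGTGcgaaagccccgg
UTP4 (chr16:69132621-69132650, plus strand): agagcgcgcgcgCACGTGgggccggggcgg
UTP20 (chr12:101280083-101280112, plus strand): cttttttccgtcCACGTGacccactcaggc
WDR43 (chr2:28894658-28894687, plus strand): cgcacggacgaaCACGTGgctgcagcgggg
NOP14 (chr4:2963374-2963403, minus strand): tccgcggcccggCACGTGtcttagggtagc
BYSL (chr6:41921515-41921544, plus strand): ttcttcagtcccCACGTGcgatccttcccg
GNL2 (chr1:37595917-37595946, minus strand): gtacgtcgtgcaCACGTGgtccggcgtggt
MRTO4 (chr1:19251807-19251836, plus strand): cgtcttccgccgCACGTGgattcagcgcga
PES1 (chr22:30591880-30591909, minus strand): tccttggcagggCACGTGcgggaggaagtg
NOP10 (chr15:34343130-34343159, minus strand): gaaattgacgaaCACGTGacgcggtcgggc
Windows of the other genes with an E-box are not shown. In RRP9, NOL6, NOP2 and PWP2, which did not pass both limits, it also began within 50 bases of the start. RRP9 and NOP2 were lower, at -0.47 and -0.43 on the log2 scale, with a limma adjusted p under 0.05. In EBNA1BP2, which fell, it began at base -237. By role, 8 of the 16 windows of small-subunit factors and 5 of the 13 of large-subunit factors held an E-box. None of the 6 windows of RNA polymerase I genes did, nor any of the 4 of nucleolar phosphoproteins and chaperones. A match is a description of the letters, and binding was not measured here. An ETS motif, CCGGAAGT on either strand, was in 9 of the 45 windows, and in 920 of the 10015 windows of genes tested (9.19%). The NRF1 consensus, searched as an exact match, was in 3 of the 45 (6.67%) and in 248 of the 10015 (2.48%).

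Values are TPM, which divide reads by gene length and bring every library to a common total, so levels of different genes can be set side by side. Libraries summed to between 997271 and 998546 TPM. The number of reads behind them is unknown, and a change in total RNA per cell would not be seen. Log2 fold changes are of TPM + 1, sh-ANP32B against NC, tested with limma over 16937 genes. SE is the standard error of that model. A gene is said to have fallen or risen where its Benjamini-Hochberg adjusted p was below 0.05 and its log2 fold change lay beyond 0.5. ANP32B, the targeted gene, had 358 and 364 TPM in NC and 54.1 and 49.3 TPM in sh-ANP32B, which left 14.3% of the control mean. Of 8 myeloid leukemia markers, 7 were in the table and expressed in all 4 libraries. PTPRC, SPI1 and CSF3R rose, MEIS1 fell, and the other 3, CD33, FLT3 and HOXA9, did neither. Their summed level was 663 and 686 TPM in NC and 1004 and 995 TPM in sh-ANP32B. MPO was not analysed here.

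After ANP32B knockdown, 31 of the 53 ribosome biogenesis factors fell and none rose. Over all genes tested, 10.1% fell and 17.9% rose. The median log2 fold change of the factors was -0.52, with a range from -1.19 for NPM3 to 0.37 for GNL3L, and the median of all genes was 0.08. In the 9644 genes tested whose mean TPM lay within the range of the factors, 13.9% fell and the median was -0.01. Without the fold limit, 45 factors were lower and 2 were higher at an adjusted p below 0.05 in limma, beside 19.7% and 26.0% of all genes. For 48 factors both knockdown libraries lay below both control libraries, which held for 32.1% of all genes. NOP10 and GNL3L lay above in both, as did 42.5% of all genes, and the libraries overlapped for NOL6, POLR1A and RRN3. The fold change was larger than the larger gap between replicates for 49 of the 53, the exceptions being these last 3 and POLR1C. That comparison was made for the factors only, so it cannot be set beside a share of all genes. The heatmap of the study had picked NOP56, NOP16, NOLC1 and GNL3 from these libraries, so their direction is no independent evidence. Of the other 49 factors, 27 fell, with a median of -0.51. The whole list of 53 was chosen with earlier results of these data known, so these values are no independent evidence either. An E-box was present in 10 of the 26 matched promoter windows of factors that fell (38.5%). It was in 5 of the 19 windows of the others (26.3%), which include factors that were lower inside the fold limit. The ETS motif was in 2 of the 26 (7.69%) and in 7 of the 19 (36.8%), and the NRF1 motif in 3 of the 26 and none of the 19.

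**Figure D1:**
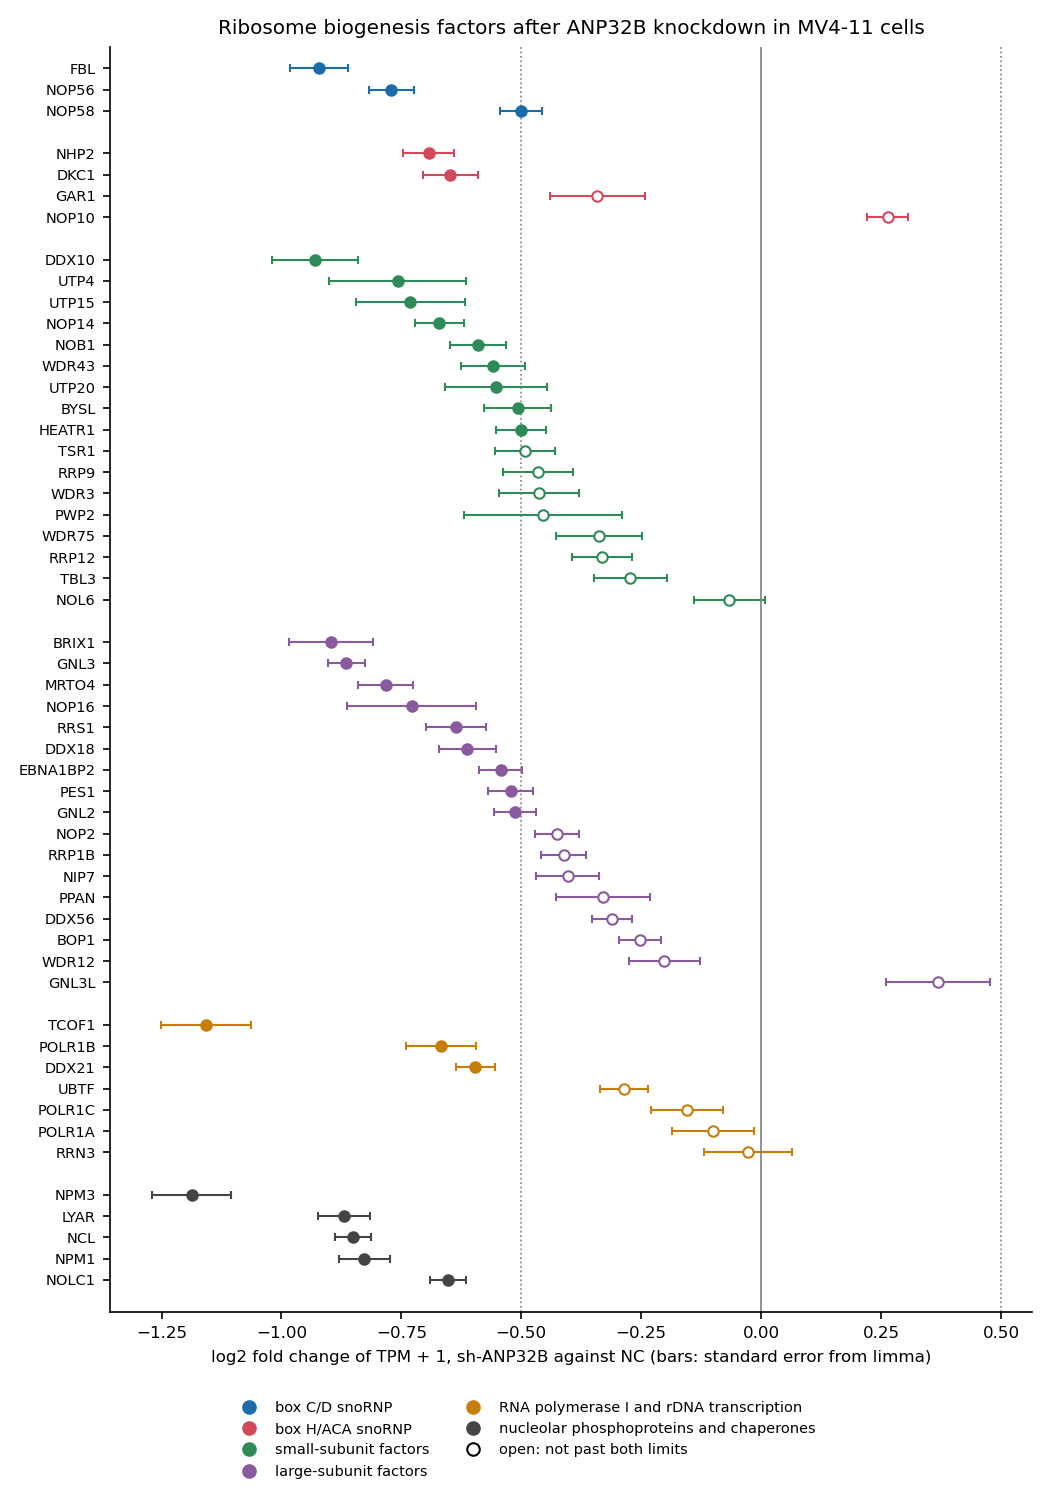
Log2 fold change of TPM + 1 (sh-ANP32B against NC, n = 2 libraries each) for all 53 factors, grouped by role, with the standard error from limma. Dotted lines mark 0.5 in either direction, and filled points are the 31 factors that fell; only NOP10 and GNL3L lie above 0.

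Summed over the 53 genes, the factors held 6835 and 6645 TPM in NC and 4366 and 4294 TPM after knockdown. This was 64.2% of the mean in NC, and the replicates of a group lay far closer together than the groups. NPM1, the most abundant factor, made up 20.7% and 19.4% of this sum in NC and 17.4% and 17.8% in sh-ANP32B. Without it the sum was 66.2% of the control mean. The levels ran from a mean over the 4 libraries of 9.70 TPM for UTP20 to 1056 TPM for NPM1, and 15 factors lay above 100 TPM. Across the 53 genes, the log2 mean TPM in NC and the log2 fold change correlated with r = -0.37 (Pearson) and rho = -0.38 (Spearman). These are given as a description, since all points come from the same 4 libraries and the NC values enter both axes.

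The nucleolar phosphoproteins and chaperones fell as a whole, 5 of 5, with log2 fold changes from -1.19 to -0.65. NPM3, a histone chaperone of the nucleoplasmin family, had 179 and 163 TPM in NC and 79.7 and 69.6 TPM in sh-ANP32B. This was the lowest log2 fold change of the 53, at -1.19 (SE 0.082, limma adjusted p = 3.12e-04). NPM3 (ENSG00000107833) lies on chromosome 10 of hg38 from 101781325 to 101783446. NPM1, its abundant relative that shuttles between nucleolus and cytoplasm, had 1417 and 1287 TPM against 758 and 763 TPM, at -0.83 (SE 0.052, limma adjusted p = 2.52e-04). The annotation names 49 numbered pseudogenes of NPM1, so reads could have been split between it and its copies. NCL (nucleolin), which binds the nascent precursor RNA, had 584 and 563 TPM against 320.0 and 314 TPM. NOLC1, a scaffold that brings snoRNPs to the nucleolus, changed least of the 5, from 217 and 215 TPM to 137 and 137 TPM, at -0.65 (limma adjusted p = 2.04e-04). LYAR, a nucleolar zinc finger protein, had 108 and 109 TPM against 57.05 and 61.2 TPM.

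Both classes of snoRNP core proteins were represented. Of the box C/D particle, whose guide RNAs direct 2′-O-methylation, 3 genes are among the 53 and all 3 fell. FBL (fibrillarin), the methyltransferase, had 362 and 336 TPM in NC and 192 and 176 TPM in sh-ANP32B, a log2 fold change of -0.92 (SE 0.060, limma adjusted p = 2.76e-04). NOP56 had 265 and 278 TPM against 154 and 163 TPM, at -0.77. Its homologue NOP58 had 131 and 127 TPM against 90.1 and 91.7 TPM, at -0.5001, a value that barely passed the fold limit. In all 3 of these genes both knockdown libraries lay below both NC libraries, as they did for 32.1% of all genes. NOP56 and NOP58 carry snoRNA genes on their own strand, as 9 of the 53 genes do for snoRNA or scaRNA genes, and the quantification could have mixed their reads.

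The box H/ACA particle, which guides pseudouridylation, did not move as a unit. DKC1 (dyskerin), the pseudouridine synthase, had 130 and 120 TPM in NC and 80.8 and 77.4 TPM in sh-ANP32B, at -0.65. NHP2 had 245 and 229 TPM against 142 and 151 TPM, at -0.69 (SE 0.053, limma adjusted p = 4.15e-04). Both fell. GAR1 stayed inside the fold limit at -0.34 (limma adjusted p = 0.0363), with 30.3 and 35.1 TPM against 24.3 and 26.8 TPM. NOP10, the smallest protein of the particle, had higher values after knockdown, 117 and 121 TPM against 146 and 142 TPM. On the log2 scale this came to 0.26 (SE 0.043, limma adjusted p = 0.00546), inside the fold limit. It lay between 0.18 and 0.29 over the alternatives, with adjusted p from 0.00398 to 0.0292 in limma, so its sign held under each of the scalings tried. NOP10 (ENSG00000182117) lies on chromosome 15 of hg38 from 34339159 to 34343180.

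Because a ratio of 2 genes within a library is unchanged when the whole library is multiplied by 1 factor, NOP10 was also set against its partners. Quantile normalization can change such a ratio, and the ratios here are of the deposited TPM. The ratio of NOP10 to DKC1 was 0.906 and 1.02 in the NC libraries and 1.80 and 1.83 in the sh-ANP32B libraries. For NOP10 to NHP2 it was 0.479 and 0.529 against 1.02 and 0.939. Neither ratio overlapped between the groups. That follows from the single genes, as NOP10 lay above NC and DKC1 and NHP2 below it in both knockdown libraries. An exact two-sided permutation test of 2 libraries against 2 cannot give a p under 0.333, and this was its value for each of the 9 ratios computed, so the ratios are given as measurements.

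**Figure D2:**
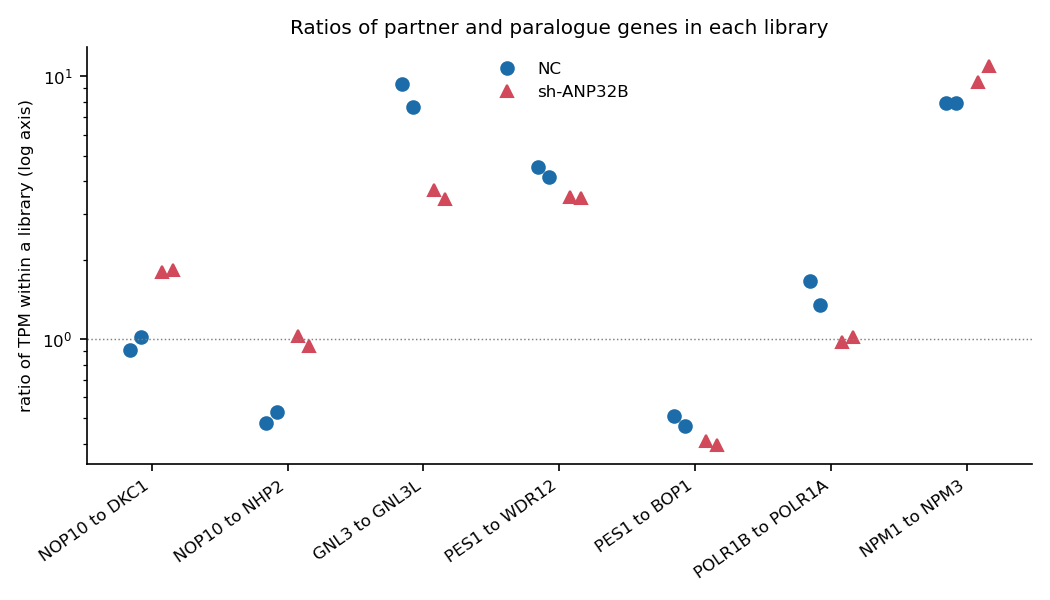
Ratio of TPM of partner or paralogous genes within each library, on a log axis, for NC (circles) and sh-ANP32B (triangles), 1 point per library, for 7 of the 9 ratios computed; the dotted line is at 1. NOP10 to DKC1 lies at 0.906 and 1.02 in NC and at 1.80 and 1.83 in sh-ANP32B, and GNL3 to GNL3L drops from 9.34 and 7.68 to 3.71 and 3.42.

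Of the 7 genes of RNA polymerase I and ribosomal DNA transcription, 3 fell. TCOF1 (treacle), which aids transcription of the ribosomal DNA and ribosomal RNA modification, had 63.4 and 73.0 TPM in NC and 28.3 and 31.7 TPM in sh-ANP32B. Its log2 fold change was -1.16 (SE 0.093, limma adjusted p = 4.82e-04). TCOF1 (ENSG00000070814) lies on chromosome 5 of hg38 from 150357629 to 150400308. DDX21, an RNA helicase that links transcription by this polymerase to processing, was the most abundant of the 7 and had 141 and 142 TPM against 93.6 and 92.5 TPM, at -0.60 (limma adjusted p = 3.07e-04). The polymerase itself was split. POLR1B, its second-largest subunit, had 38.9 and 35.7 TPM against 22.9 and 23.3 TPM, at -0.67 (limma adjusted p = 0.00129). POLR1A, the largest subunit, had 23.4 and 26.4 TPM against 23.4 and 22.9 TPM, at -0.10 (limma adjusted p = 0.385). The ratio of POLR1B to POLR1A was 1.66 and 1.35 in NC and 0.979 and 1.02 in sh-ANP32B. RRN3, the factor that makes the polymerase competent to initiate, had overlapping values of 18.9 and 20.2 TPM against 18.1 and 20.2 TPM (limma adjusted p = 0.833). UBTF, which binds the ribosomal DNA promoter, had 90.0 and 91.2 TPM against 76.3 and 72.0 TPM, at -0.29, inside the fold limit. POLR1C, shared with RNA polymerase III, had -0.15 (limma adjusted p = 0.149), and its exons share bases with YIPF3, which rose by 0.81 on the log2 scale, and with XPO5 (-0.42), both on the opposite strand.

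Among the 17 small-subunit factors, 9 fell and none rose, and all 17 log2 fold changes were negative. DDX10, a helicase of early 40S assembly, was lowest, with 27.1 and 25.8 TPM in NC and 14.1 and 12.7 TPM in sh-ANP32B, at -0.93 (SE 0.089, limma adjusted p = 8.35e-04). NOP14 had 97.3 and 92.7 TPM against 58.7 and 59.9 TPM, and NOB1, the nuclease that makes the final cut of the 18S RNA, had 102 and 94.4 TPM against 66.2 and 63.2 TPM. Both fell, with log2 fold changes of -0.67 and -0.59. NOL6 was at the other end, with overlapping values of 42.4 and 47.4 TPM against 43.6 and 42.0 TPM, at -0.07 (limma adjusted p = 0.499).

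Several of these proteins form stable subcomplexes of the small-subunit processome. In UTP-A, which binds the 5′ end of the precursor and is tied to its transcription, UTP4 (-0.76), UTP15 (-0.73), WDR43 (-0.56) and HEATR1 (-0.501) fell. UTP4 had 40.1 and 39.997 TPM in NC and 27.1 and 19.9 TPM in sh-ANP32B, so its knockdown libraries stood well apart while both lay below NC. UTP15 had 18.9 and 20.8 TPM against 10.6 and 12.5 TPM, and WDR43 had 48.1 and 51.8 TPM against 32.7 and 34.4 TPM. HEATR1, the longest protein of the subcomplex, had 72.0 and 75.3 TPM against 52.4 and 51.1 TPM. The member WDR75, the most abundant small-subunit factor of the list, had 92.6 and 94.5 TPM against 80.8 and 67.4 TPM, at -0.34 (limma adjusted p = 0.0278). The 2 knockdown libraries of WDR75 stood 0.26 apart on the log2 scale, and its log2 fold change ranged from -0.47 to -0.21 as each library was left out. UTP-B, which joins next, has 6 genes, of which 1 fell. This was UTP18, at 80.0 and 77.4 TPM against 50.98 and 56.6 TPM (-0.54), which is not among the 53. Those of its genes that are among the 53, WDR3 (-0.46), PWP2 (-0.45) and TBL3 (-0.27), stayed inside the fold limit. So did WDR36 (-0.44) and UTP6 (-0.05), which are not among the 53. Of the 6 genes of UTP-A, 4 fell, and its gene outside the 53, NOL11, had -0.49. Without the fold limit, 6 genes of UTP-A and 4 of UTP-B were lower at an adjusted p below 0.05 in limma. The median log2 fold changes were -0.53 for UTP-A and -0.45 for UTP-B, so the contrast in counts depends in part on the fold limit. PWP2 had 18.2 and 15.2 TPM against 13.7 and 10.2 TPM, with adjusted p = 0.0696 in limma. As each library was left out its log2 fold change ran from -0.65 (limma adjusted p = 0.0255, without sh-ANP32B replicate 1) to -0.26 (without sh-ANP32B replicate 2). UTP20, at 11.6 and 11.8 TPM against 7.59 and 7.75 TPM, and BYSL, at 42.9 and 42.1 TPM against 30.9 and 28.3 TPM, fell by 0.55 and 0.51 on the log2 scale. RRP9, the U3 snoRNP protein, had 69.4 and 62.1 TPM against 48.8 and 45.8 TPM, at -0.47, and RRP12, which acts in export of pre-40S particles, had 61.1 and 65.5 TPM against 51.6 and 48.5 TPM, at -0.33. TSR1, a GTPase-like factor of late 40S maturation, had 56.8 and 57.7 TPM against 42.1 and 38.8 TPM, at -0.49. Of the 53 factors, 10 had log2 fold changes between -0.55 and -0.45. Except for PWP2, whose adjusted p was above 0.05 in limma, their calls hang on where the fold limit lies. TSR1 came closest to the limit without passing it, and NOP58 and HEATR1 passed it by the least.

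The 17 large-subunit factors gave 9 that fell and none that rose. BRIX1 was lowest, with 63.5 and 62.6 TPM in NC and 36.3 and 30.8 TPM in sh-ANP32B, at -0.90 (SE 0.087, limma adjusted p = 8.67e-04). GNL3 (nucleostemin), a nucleolar GTPase, was the most abundant and had 254 and 257 TPM against 141 and 138 TPM, at -0.86 (SE 0.038, limma adjusted p = 1.17e-04). MRTO4, which holds the place of the ribosomal stalk protein, fell by 0.78 on the log2 scale, with 121 and 112 TPM against 68.9 and 65.4 TPM. NOP16 fell by 0.73, with 81.3 and 83.4 TPM in NC and widely spaced values of 57.1 and 42.5 TPM in sh-ANP32B. In all 4 of these genes both knockdown libraries lay below both NC libraries, as they did for 32.1% of all genes. RRS1, which helps load the 5S RNP, had 59.3 and 64.5 TPM against 39.3 and 39.6 TPM, and the helicase DDX18 had 80.2 and 76.5 TPM against 52.6 and 49.2 TPM. EBNA1BP2 had 194 and 189 TPM against 134 and 128 TPM, and the GTPase GNL2 had 102.5 and 101 TPM against 71.3 and 70.7 TPM. These 4 fell by 0.64, 0.61, 0.54 and 0.51 on the log2 scale. NOP2, an RNA methyltransferase, RRP1B, NIP7 and the helicase DDX56 had log2 fold changes between -0.43 and -0.31, with their knockdown libraries all below NC and each with an adjusted p below 0.05 in limma.

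GNL3L, the paralogue of GNL3, had higher values after knockdown. It had 27.2 and 33.4 TPM in NC and 38.1 and 40.4 TPM in sh-ANP32B, a log2 fold change of 0.37 (SE 0.108, limma adjusted p = 0.0384), inside the fold limit. Both knockdown libraries lay above both NC libraries, as they did for 42.5% of all genes. The 2 NC libraries stood 0.29 apart on the log2 scale, and the value without each library in turn ran from 0.22 to 0.51. Its adjusted p in limma was above 0.05 without NC replicate 1 (0.108), without sh-ANP32B replicate 1 (0.0678) and without sh-ANP32B replicate 2 (0.122). GNL3 thus stood at 9.34 and 7.68 times the TPM of GNL3L in NC and at 3.71 and 3.42 times in sh-ANP32B.

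The PeBoW complex, needed for maturation of the 5.8S and 28S RNAs, consists of PES1, BOP1 and WDR12. PES1 fell, with 106 and 103 TPM against 73.1 and 71.9 TPM, at -0.52 (limma adjusted p = 6.43e-04). BOP1 had 208 and 220.0 TPM against 178 and 181 TPM, at -0.25 (limma adjusted p = 0.00661), and WDR12 had 23.6 and 24.9 TPM against 21.0 and 20.9 TPM, at -0.20 (limma adjusted p = 0.0741). The ratio of PES1 to WDR12 was 4.51 and 4.12 in NC and 3.48 and 3.44 in sh-ANP32B.

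PPAN gave an uncertain value, because the table also lists a readthrough gene, PPAN-P2RY11, that shares 1374 exonic bases with it on the same strand. PPAN had 78.4 and 80.0 TPM in NC and 56.7 and 69.5 TPM in sh-ANP32B, at -0.33 (limma adjusted p = 0.0407). PPAN-P2RY11 had 8.93 and 9.24 TPM in NC, and 12.2 TPM and a listed 0 in sh-ANP32B. The sum of both genes was 87.3 and 89.2 TPM in NC and 68.9 and 69.5 TPM in sh-ANP32B, so the 2 knockdown libraries differed less in the sum than in PPAN alone. The exons of 20 of the 53 factors share bases with a gene on the opposite strand. The strand setting of the quantification is not given in the sources used here. HEATR1 shares 2095 exonic bases with LGALS8, whose log2 fold change was 0.42 (limma adjusted p = 0.0144).

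**Figure D3:**
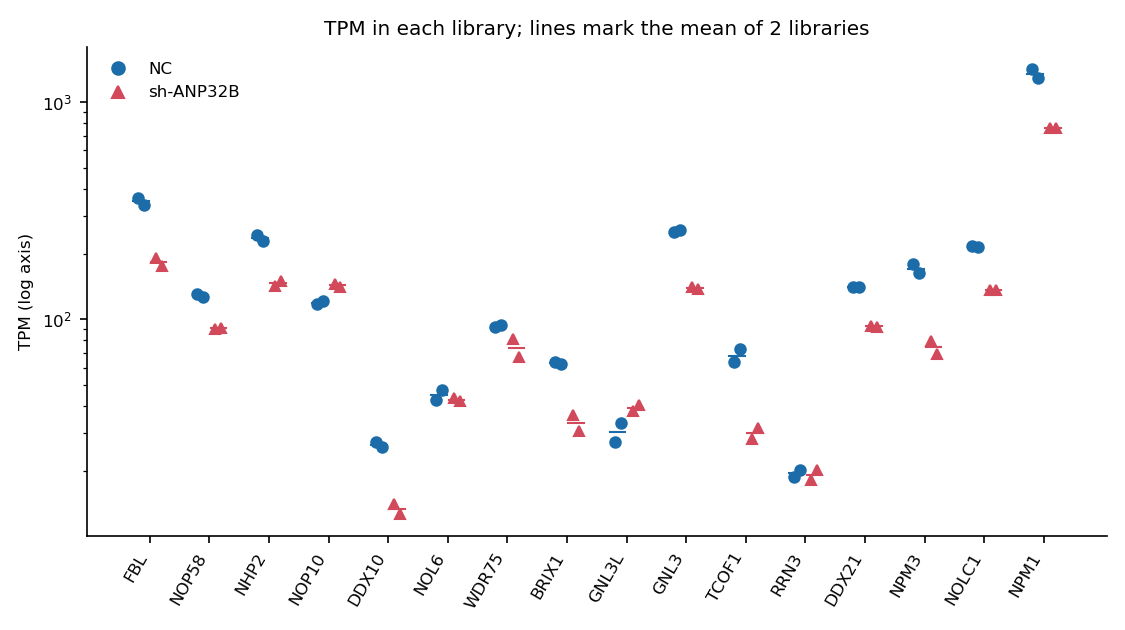
TPM on a log axis for the factors with the lowest fold change, the highest fold change or the highest level in each role group, with 1 point per library (NC circles, sh-ANP32B triangles) and a line at the mean of 2. The knockdown points lie below the control points except for NOP10 and GNL3L, where they lie above, and NOL6 and RRN3, where they overlap.

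The rest of the pathway was followed in a list of 108 other ribosome biogenesis factors, written from general knowledge. Of these, 34 fell and none rose, with a median log2 fold change of -0.36. By step, 10 of 32 factors of the small-subunit processome fell, 11 of 34 nuclear 60S factors, 5 of 12 exosome genes, 4 of 10 snoRNP assembly genes and 3 of 9 RNA polymerase I genes. In the cytoplasmic steps, 1 of 5 genes of 40S maturation fell and 0 of 6 genes of 60S maturation. For those 6, 2 had an adjusted p below 0.05 in limma without the fold limit, and their median was -0.15. The 3 lowest of the 108 were NUFIP1, an assembly factor of snoRNPs (20.4 and 20.2 TPM against 7.46 and 8.40 TPM, log2 fold change -1.25), RPF2, which works with RRS1 on the 5S RNP (-1.07), and EXOSC5, a core subunit of the exosome (-1.01). The 3 highest were POLR1H, HEATR3 and RRP36. POLR1H, a small subunit of RNA polymerase I, had 11.4 and 1.29 TPM in the 2 NC libraries and 6.66 and 6.79 TPM in sh-ANP32B, a replicate gap that left its 0.54 with adjusted p = 0.591 in limma. HEATR3 had 24.1 and 21.7 TPM against 30.8 and 27.9 TPM (0.34, limma adjusted p = 0.0267), and RRP36 had 77.6 and 80.8 TPM against 96.6 and 87.7 TPM (0.21, limma adjusted p = 0.0374), both inside the fold limit.

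The 79 cytosolic ribosomal protein genes, which encode the parts that these factors assemble, were also lower on the whole. Of these, 20 fell and none rose, with a median of -0.40 on the log2 scale and 73 lower at an adjusted p below 0.05 in limma without the fold limit. The number that fell moved with scaling, to 8 under quantile normalization and 39 under median-of-ratios scaling, while that of the 53 factors was 29 and 36. Quantile normalization shifted the median of all genes by -0.12, and 2230 genes (13.2%) then fell and 2208 rose. Relative to the median of all genes, that of the 53 factors lay at -0.60 as deposited, -0.49 under quantile normalization and -0.61 under median-of-ratios scaling. E-boxes were in 3 of 63 promoter windows of ribosomal protein genes (4.76%) and in 23 of 91 windows of the 108 other factors (25.3%).

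**Figure D4:**
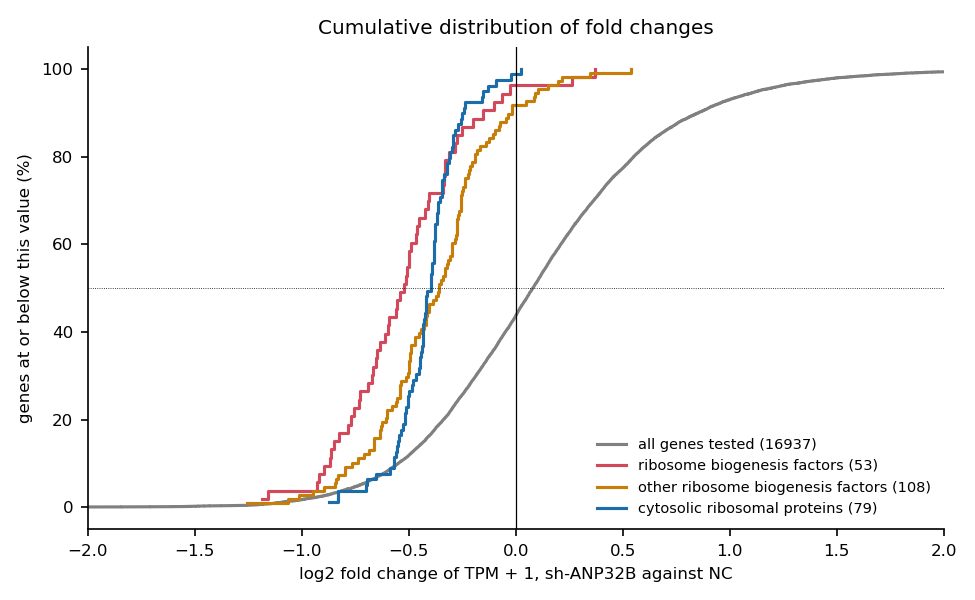
Share of genes at or below each log2 fold change of TPM + 1 (sh-ANP32B against NC), in percent, for all 16937 genes tested, the 53 factors, 108 other biogenesis factors and 79 cytosolic ribosomal protein genes; the axis is cut at 2 in either direction. The 3 lists cross 50% at -0.52, -0.36 and -0.40, and all genes cross it at 0.08.

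Other gene groups moved between the same libraries. MYC had 376 and 370 TPM in NC and 240 and 236 TPM in sh-ANP32B, a log2 fold change of -0.65. Of 42 S-phase genes that are not among the factors, 40 fell, and their summed level was 4349 to 4373 TPM in NC and 2154 to 2163 TPM in sh-ANP32B. POLR1B is also on that S-phase list. Of 12 monocyte and macrophage markers, 7 were in the table and 6 rose, among them CD68, LYZ and S100A9. Their summed level was 524 to 530 TPM in NC and 5561 to 5613 TPM in sh-ANP32B. Most of this sum came from 1 marker, whose mean over the 4 libraries was 2876 TPM. S100A8 and S100A9 lay below 1 TPM in both NC libraries, and CD14, FCGR3A, MRC1, CD163 and VCAN were not analysed here. The part of these groups in the lower values of the ribosome biogenesis factors was not tested. In bulk RNA, fewer cells of a kind and less RNA per cell cannot be told apart.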

How the data were processed

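RNA-seq of 2 NC and 2 sh-ANP32B libraries of MV4-11 cells was used, grouped by the sample titles. The submitters' processing notes name the aligner HISAT2 (version 2.0.5) and the build hg38. The deposited values are TPM, a unit read from the columns, which each sum to nearly the same total. The quantifier, its annotation and its use of strand are not given in the sources used here, and depth is unknown. Of 18885 gene identifiers, 17290 matched GENCODE version 44 on hg38, which gave symbols, positions and overlaps.

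The study called genes with a count test. As TPM are not counts, limma (version 3.58.1, R 4.3.3; lmFit, eBayes with a trend) was run on log2(TPM + 1) for the 16937 genes that reached 1 TPM in 2 or more libraries, with Benjamini-Hochberg adjustment over all of them. The fold limit of 0.5 follows the study. The script was tested on simulated data. Members, gene lists, subcomplexes and motifs were chosen with earlier results of these data known, and the ratios and subcomplexes after the values were seen. Named genes are the lowest, highest and most abundant member of each role group, 3 at each end of the other factors, ANP32B and MYC. Other members are given more briefly. Motifs were searched on both strands of RefSeq promoter windows of 300 bases, with 1 window kept per gene. Python (version 3.11.15) was used for tables and plots. The alternatives tried were another pseudocount, other filters, scalings and call rules, a replicate block, and leaving out each library.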

Additional observations from a re-analysis of the deposited data

How the results depend on the processing

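The number of the 53 factors that fell lay between 29 and 36 over the pseudocount of 0.1, both other filters, both scalings, the replicate block, the unadjusted p and each library left out, and the 31 became 45 with no fold limit and 2 (NPM3 and TCOF1) at a fold limit of 1. The number that rose was 0 in these settings except for 2 with no fold limit (NOP10 and GNL3L) and a range from 0 to 1 with each library left out (GNL3L without NC replicate 2). Their median of -0.52 was -0.61 under median-of-ratios scaling and ran from -0.55 to -0.51 with each library left out. Of the 108 other factors, 73 were lower and 2 higher with no fold limit, 3 were lower at a fold limit of 1, and 0 to 1 rose with each library left out. Of the 79 ribosomal protein genes, 8 fell under quantile normalization, 39 under median-of-ratios scaling, 73 with no fold limit and 0 at a fold limit of 1. ANP32B stayed between -2.87 and -2.72 in all of these settings. With each library left out, RRN3 ran from -0.10 to 0.046, above 0 without NC replicate 2 (0.021) and without sh-ANP32B replicate 1, and NOL6 from -0.14 to 0.012, above 0 without NC replicate 2. Neither had an adjusted p below 0.05 in limma in any setting. An adjusted p above 0.05 was reached by WDR75 and TBL3 (without either NC library, TBL3 also without sh-ANP32B replicate 2), GAR1 (without NC replicate 2 or sh-ANP32B replicate 1), PPAN (without any library but sh-ANP32B replicate 2) and GNL3L (without any but NC replicate 2), by PPAN under quantile normalization (0.0616) and by GNL3L under median-of-ratios scaling (0.0654), and the cause was not tested. PPAN moved to -0.18 without sh-ANP32B replicate 1. PWP2 had a limma adjusted p below 0.05 without sh-ANP32B replicate 1, under both scalings and with the replicate block (0.0279), and WDR12 under both scalings. With 1 library left in a group, limma assumes that it varies like the other group. Libraries with the same number deviated from their groups with a correlation of -0.0232 over genes. That shows no shared deviation, but it cannot tell whether they were handled as pairs. With the replicate block 31 factors fell and 0 rose. TPM hold no read numbers, so no counting error can be given for factors of low level such as UTP20.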
